A study of Mus musculus with 14 samples.

Results

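The genes described here are 9 chromatin regulators that are mutated as tumour suppressors in several cancers: the histone H3 lysine 4 methyltransferases Kmt2a, Kmt2b, Kmt2c and Kmt2d, the histone H3 lysine 36 methyltransferase Setd2, the histone acetyltransferases Ep300 and Crebbp, the corepressor Ncor1 and the histone H3 lysine 27 methyltransferase Ezh2. They were taken by gene name and protein-coding biotype, and all 9 of 9 were found among the 21292 protein-coding genes listed in at least 1 of 12 mouse mammary tumours. In the files their Ensembl identifiers are ENSMUSG00000002028 (Kmt2a), ENSMUSG00000006307 (Kmt2b), ENSMUSG00000038056 (Kmt2c), ENSMUSG00000048154 (Kmt2d), ENSMUSG00000044791 (Setd2), ENSMUSG00000055024 (Ep300), ENSMUSG00000022521 (Crebbp), ENSMUSG00000018501 (Ncor1) and ENSMUSG00000029687 (Ezh2). Ncor1 has no transferase activity of its own, and Ezh2 is known both as an oncogene and as a tumour suppressor, so a name such as "transferase tumour suppressors" covers them only loosely.

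The exomes came from 4 groups of 3 tumours. All tumours grew from mammary fragments of p53null Balb/c donors that were 8 to 10 weeks old, and were collected at a diameter of 2 cm. In the gel experiment the fragments were placed in cleared fat pads of syngeneic wild-type females, 3 to 4 weeks old, with a gel of collagen 1 and 20% basement membrane incubated for 10 to 14 days. The gel was left soft (A1, A2, A3) or was stiffened by crosslinking with 500 mM L-ribose (A7, A8, A9). In the host experiment the fragments were placed in LysM-Cre mice, in which Cre acts in myeloid cells, that were either wild-type (WT; B1, B2, B3) or knockout (KO; B4, B5, B6) for Gpx4, the gene of a peroxidase that reduces lipid peroxides. The knockout is therefore a property of the host's myeloid cells and not of the implanted fragments. The question behind both experiments, per the series' design text, is whether a stiffer tissue or more oxidative stress goes with more damage to DNA.

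Histone methyltransferases of the KMT2 family work in large complexes that mark promoters (Kmt2a, Kmt2b) and enhancers (Kmt2c, Kmt2d) as active. Setd2 marks the bodies of transcribed genes, and Ep300 and Crebbp are paralogous acetyltransferases of active enhancers. Ncor1 is a scaffold that brings histone deacetylase to repressed genes, and Ezh2 is the catalytic subunit of Polycomb repressive complex 2. Several of these genes, KMT2C and NCOR1 among them, are recurrently mutated in human breast cancer.

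What was counted for each gene is the number of variants in each predicted impact class. HIGH covers frameshifts, gained stops and splice-site changes, MODERATE is mostly missense, LOW is mostly synonymous, and MODIFIER is mostly intronic and flanking. Protein-altering counts are HIGH plus MODERATE, and coding counts add LOW. Coding counts over all genes ran from 14431 (B5) to 27324 (B1) per tumour. Tumours A9 and B5 stood apart in having 19.9 and 23.1 frameshifts per 100 missense variants over all genes, against 27.7 to 30.8 in the other 10. Trp53 had protein-altering variants in A2 (1), B1 (2) and B4 (1), and Gpx4 and Lyz2 had none in any tumour, which leaves the labels unchecked by them. The counts can hold strain differences from the reference as well as somatic changes. Genes differ in length, and no coding lengths of the files' build were used here, so counts are compared between tumours and not between genes.

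Protein-altering variants were listed for 8 of the 9 genes in at least 1 tumour, with 4 to 7 of the 9 genes affected in each tumour. Kmt2a had 3, 9 and 5 in the soft tumours, 2, 5 and 1 in the stiff tumours, 4, 2 and 6 in WT hosts and 2, 2 and 3 in KO hosts. Every tumour had at least 1, and A2 was the highest. Ep300 had 4, 5 and 3 in soft, 3, 1 and 3 in stiff, 4, 3 and 2 in WT and 3, 1 and 4 in KO tumours. It too was hit in all 12 tumours, as were 1593 of the 11826 genes with any protein-altering variant (13.5%), and the 4 groups overlapped. Its paralogue Crebbp had 0 protein-altering variants in all 12 tumours, and its coding variants were 2 synonymous changes in A1 and 1 in B1.

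Kmt2d, a methyltransferase of enhancers, had 0, 0 and 2 protein-altering variants in soft tumours and 3, 6 and 0 in stiff tumours. In the host experiment it had 2, 0 and 1 in WT and 4, 1 and 1 in KO tumours. A8 was the highest and 4 tumours had none. Kmt2b, which marks promoters, had 0, 0 and 3 in soft, 1, 0 and 1 in stiff, 3, 1 and 0 in WT and 0, 0 and 3 in KO tumours. A3, B1 and B6 were the high tumours, 1 each in the soft, WT and KO groups. Kmt2c, the paralogue of Kmt2d, had a single missense variant in A9 and another in B4, and none elsewhere.

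Setd2 had 1, 2 and 1 protein-altering variants in soft, 2, 2 and 0 in stiff, 2, 3 and 2 in WT and 0, 0 and 3 in KO tumours. The tumours with none were A9, B4 and B5. Ncor1 had 1, 1 and 1 in soft, 2, 1 and 1 in stiff, 3, 2 and 1 in WT and 1, 1 and 2 in KO tumours. Every tumour thus carried at least 1, as for 13.5% of the genes with any protein-altering variant. Ezh2 had exactly 1 in 10 of 12 tumours and 0 in A9 and B5.

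**Figure D1:**
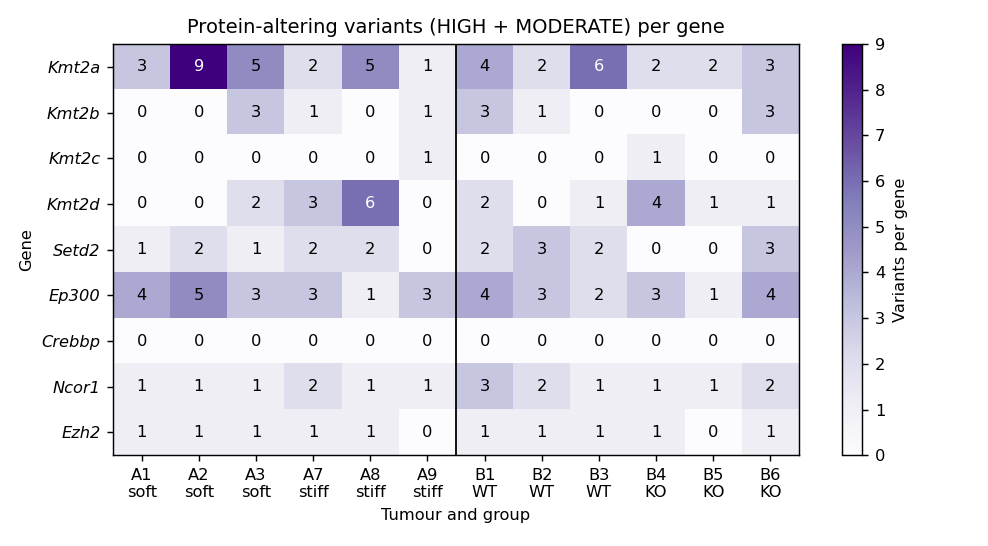
Protein-altering variants (HIGH plus MODERATE) of each of the 9 genes (rows) in each of the 12 tumours (columns, with their group); the number and the shade give the count, and the vertical line separates the gel from the host experiment. Kmt2a reaches 9 in A2, Kmt2d reaches 6 in A8, and the Crebbp row is 0 throughout.

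HIGH-impact variants were listed for 7 of the 9 genes, and Kmt2c and Crebbp had none. The 9 genes together held 57 HIGH, 102 MODERATE and 142 LOW variants over the 12 tumours. HIGH variants made up 18.9% of their coding variants, against 16.3% over all genes. Synonymous variants numbered 138 per 100 missense variants in these genes and 78.1 over all genes, and frameshifts numbered 42 and 28.2 per 100 missense. Each ratio rested on a pair of genes, which were picked after the values were seen. Kmt2a had 59 synonymous and 37 missense variants and Kmt2b 37 and 8, and without both the synonymous ratio was 76.4. Without Kmt2d and Ncor1 the frameshift ratio was 17.6, below that of all genes. These ratios are descriptions of summed counts, in which a variant present in several tumours counts once in each.

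The Kmt2d frameshifts were uneven across tumours: 2 in A7, 6 in A8, 1 in B1, 1 in B3 and 2 in B4, with 0 in the other 7. All 6 in A8 were listed for both of the transcripts ENSMUST00000023741 and ENSMUST00000178486, out of 4 Kmt2d transcripts listed there. In A8, 15 of the 1325 genes with a frameshift, Kmt2d included, had at least as many as Kmt2d, and the most in 1 gene was 20. These are raw counts that take no account of gene length, so they do not rank Kmt2d. A gained stop was listed for Kmt2d in each of A7, B3 and B4. The HIGH counts there equalled the frameshift counts, so the gained stops added no further HIGH variant. The files give no positions, so whether the 6 variants lie close together cannot be read from them.

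Ncor1 had a HIGH variant in all 12 tumours, as did 633 of the 6593 genes with any (9.60%). In 11 tumours this was a frameshift, with 2 in A7, B1 and B2. Frameshifts were listed for 5 of 15 transcripts in A1, A2, A3, A9, B3 and B6, and for 5 of 12 in A8 and B5. In A7 they were listed for 8 of 15 transcripts, and in B1 and B2 for 9 of 15. B4 had a gained stop instead, in 7 of 12 listed transcripts. In Ezh2 the HIGH variant was a splice acceptor change in 5 of 6 listed transcripts of each of the 10 tumours. Being present in all tumours but A9 and B5 was a pattern that Ezh2 shared with 33 genes in all for HIGH variants and with 8 of 902 genes for splice acceptor variants. A9 and B5 are also the tumours with the low share of frameshifts, and the part of that in the Ezh2 pattern was not tested.

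Setd2 had 1 frameshift in each of A3, A7, A8, B1, B2 and B3, always in the transcript ENSMUST00000153838 and in no other of the 3 listed. The 3 WT tumours each had 1 and the 3 KO tumours 0, so the host groups did not overlap in HIGH counts. Of 2211 genes compared, 4.61% had HIGH counts that were lower in KO without overlap. In the gel experiment a frameshift in that transcript was listed in 1 of 3 soft and 2 of 3 stiff tumours. Without positions, whether it is one shared variant cannot be told.

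The remaining HIGH variants were scattered. Kmt2a had frameshifts in A2 and A3 and a splice donor change in A2, A8, B1 and B3. Kmt2b had 2 frameshifts in A3 and 1 each in B1 and B2. Ep300 had 1 frameshift in A2, 1 in B1 with a lost stop, and 2 in B6. Summed over the 9 genes, HIGH variants numbered 2, 5 and 6 in soft, 6, 10 and 1 in stiff, 8, 5 and 5 in WT and 4, 1 and 4 in KO tumours. The KO tumours were all below the WT tumours. Over all genes, HIGH counts were 3988 ± 649 in WT and 3018 ± 988 in KO tumours (SD, n = 3 each) and overlapped. Per 10000 HIGH variants of the tumour, the 9 genes had 14.9 ± 2.30 in WT and 9.42 ± 4.33 in KO (SD, n = 3 each), and on that scale the groups overlapped.

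**Figure D2:**
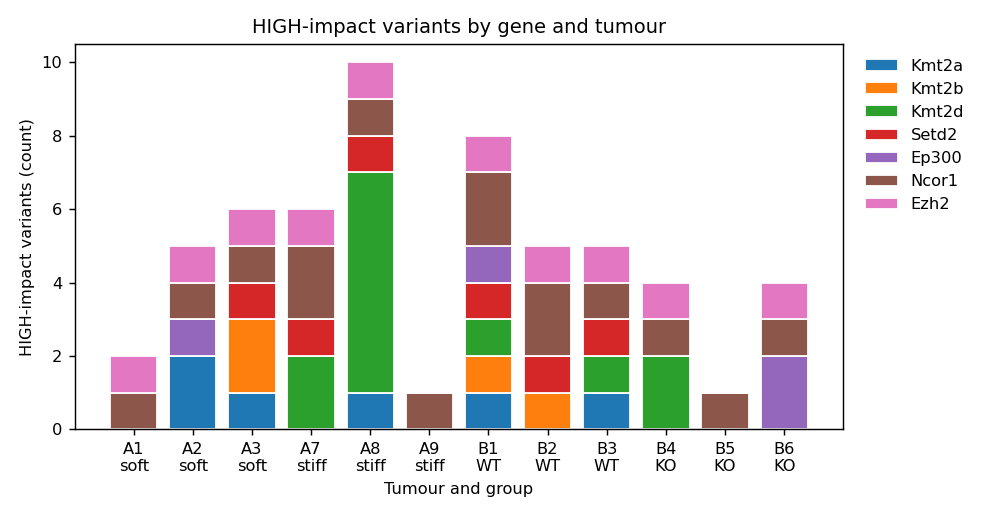
HIGH-impact variants per tumour (vertical axis, count), stacked by gene, for the 12 tumours with their group. The A8 bar reaches 10, of which 6 are Kmt2d, while A9 and B5 hold 1 variant each, in Ncor1; Kmt2c and Crebbp have none and are not drawn.

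No member differed between stiff and soft tumours by the test. Of the 9 genes, 7 passed the filter of at least 3 protein-altering variants over the 6 tumours, Kmt2c and Crebbp being below it. By edgeR's quasi-likelihood test with Benjamini-Hochberg adjustment over 4311 genes, 0 of the 7 were called and 0 had an unadjusted p under 0.05. Over all genes 0 were called (percentage called 0), 106 (2.46%) had an unadjusted p under 0.05, and DESeq2 called 0. The Kmt2d mean was 3.00 ± 3.00 in stiff and 0.667 ± 1.15 in soft tumours (SD, n = 3 each), a log2 fold change of 1.98 (SE 1.49, edgeR adjusted p = 1). That value was 1.04 without A8 and 4.64 without A3, the soft tumour with the 2 variants. Kmt2a went the other way, with 2.67 ± 2.08 in stiff and 5.67 ± 3.06 in soft tumours, a log2 fold change of -1.05 (SE 0.68, edgeR adjusted p = 1). It was -0.56 without A2 and -1.83 without A8. The 7 genes split into 2 with a positive, 4 with a negative and 1 with a zero log2 fold change, and their median was -0.51, beside 0 over all genes tested.

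LOW-impact variants, mostly synonymous, were the one class of coding variant in which a member did not overlap between gels. Kmt2b had 3, 3 and 5 LOW variants in soft tumours and 2, 2 and 2 in stiff tumours. Of 3209 genes compared, 2.46% had lower LOW counts in stiff tumours without overlap. Summed over the 9 genes, LOW variants were 12, 15 and 15 in soft and 8, 11 and 10 in stiff tumours, which did not overlap. This sum includes Kmt2b, and without Kmt2b the soft tumour A1 and the stiff tumour A8 were level. Kmt2a and Kmt2b held 59 and 37 of the 142 LOW variants of the 9 genes over the 12 tumours. Over all genes the LOW counts overlapped, at 7214 ± 537 in soft and 6590 ± 165 in stiff tumours (SD, n = 3 each). Per 10000 LOW variants of the tumour, the 9 genes had 19.4 ± 1.59 in soft and 14.7 ± 2.63 in stiff tumours, without overlap. Per 10000 MODERATE variants they had 13.1 ± 2.16 in soft and 9.38 ± 1.24 in stiff tumours, also without overlap. The gap was narrow, with 11.1 in A1 and 10.8 in A7. As counts, their MODERATE variants overlapped, at 8, 13 and 10 in soft and 8, 6 and 6 in stiff tumours. HIGH variants overlapped on the scale per 10000. In the host experiment the summed LOW counts overlapped: 12, 12 and 8 in WT and 12, 9 and 18 in KO tumours. Only per 10000 LOW variants of the tumour were they higher in KO (16.5 ± 1.78) than in WT tumours (11.2 ± 1.68), without overlap. The mean LOW count of all genes was 7755 in KO and 9452 in WT tumours. No share over all genes was computed for these sums and scaled values.

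No member differed between KO and WT hosts by the test either. The same 7 genes passed the filter, and 0 were called or had an unadjusted p under 0.05 by edgeR over 5308 genes. Over all genes 0 were called (percentage called 0), 199 (3.75%) had an unadjusted p under 0.05, and DESeq2 called 0. Setd2 had 1.00 ± 1.73 in KO and 2.33 ± 0.577 in WT tumours (SD, n = 3 each), a log2 fold change of -1.13 (SE 1.13, edgeR adjusted p = 1). The value was -0.60 without B5 and -4.30 without B6, the KO tumour with 3 missense variants. Of the 7 genes, 6 had a negative log2 fold change and Kmt2d a positive one, 0.92 (SE 1.00), although Ep300 turned from -0.16 to 0.16 when each tumour was scaled to its total protein-altering count. Leaving out 1 tumour turned the sign of Kmt2b (0.85 without B1 and 0.16 without B4 or B5) and of Ep300 (0.21 without B5 and 0.09 without B1). Kmt2d was 0 without B4 and 1.77 without B1, and Ezh2 was 0 without B5, so these 2 genes did not turn sign. The median of the 7 genes was -0.51, beside -0.31 over all genes tested. Protein-altering counts of the whole exome were 11330 ± 3278 in KO and 14386 ± 1994 in WT tumours (SD, n = 3 each).

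Gel tumours and host tumours differ in gel, host mice and possibly sequencing run, which cannot be told apart. The 7 genes passed the filter here too, and 0 of them were called or had an unadjusted p under 0.05 by edgeR over 6829 genes. Over all genes 0 were called (percentage called 0) by edgeR and 4 by DESeq2, while 739 (10.8%) had an unadjusted edgeR p under 0.05. The log2 fold changes of gel over host tumours ran from -0.47 (SE 0.32) for Ncor1 to 0.38 (SE 0.46) for Kmt2a, with edgeR adjusted p from 0.873 to 1. Their median was 0, beside -0.34 over all genes tested. No member's protein-altering counts failed to overlap in any of the 3 comparisons. The percentage of all genes tested that did not overlap was 3.87 for stiff against soft, 4.99 for KO against WT and 0.205 for gel against host.

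**Figure D3:**
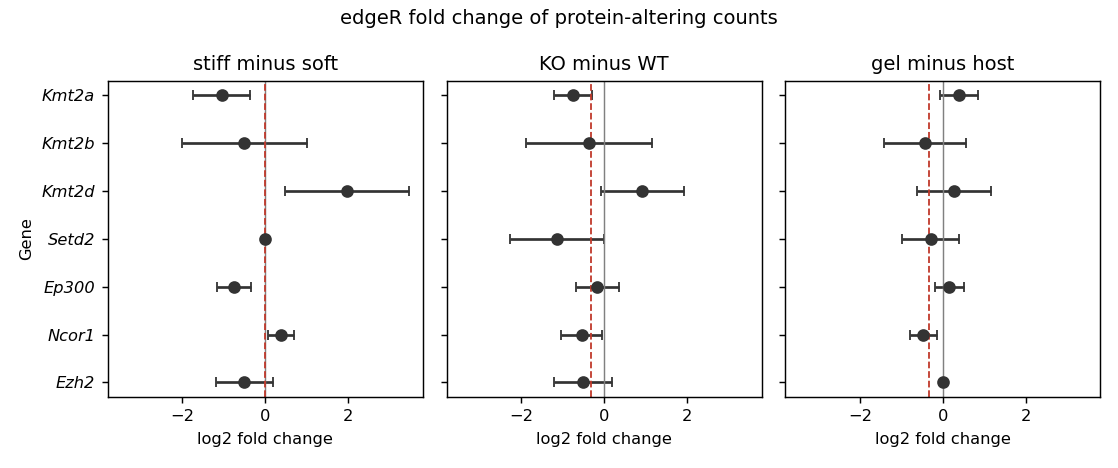
edgeR log2 fold change of the protein-altering count (horizontal axis) for the 7 genes that passed the filter, in the 3 comparisons; bars are ± 1 approximate SE (none where the value is 0), the solid line marks 0 and the dashed line the median of all genes tested. Kmt2d is the highest in stiff over soft, at 1.98, and the lowest value is -1.13, for Setd2 in KO over WT.

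The summed coding count of the 9 genes was 22, 33 and 31 in soft, 22, 27 and 17 in stiff, 31, 24 and 21 in WT and 24, 14 and 35 in KO tumours. The groups overlapped in each comparison. The means were 28.7 ± 5.86 in soft, 22.0 ± 5.00 in stiff, 25.3 ± 5.13 in WT and 24.3 ± 10.5 in KO tumours (SD, n = 3 each). The stiff mean was lower than the soft mean by a difference of -6.67, with the difference between -10.0 and -4.17 when 1 tumour was left out. The KO-minus-WT difference was -1.0, and it was 4.17 without B5 and 1.83 without B1. The gel-minus-host difference was 0.50, and it was -1.67 without Kmt2a or without B5, -1.03 without A2, -0.63 without A3 and -0.27 without B3. Per 10000 coding variants of the tumour, the 9 genes had 14.7 ± 2.66 in the gel and 11.5 ± 1.84 in the host tumours (SD, n = 6 each), and these overlapped.

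**Figure D4:**
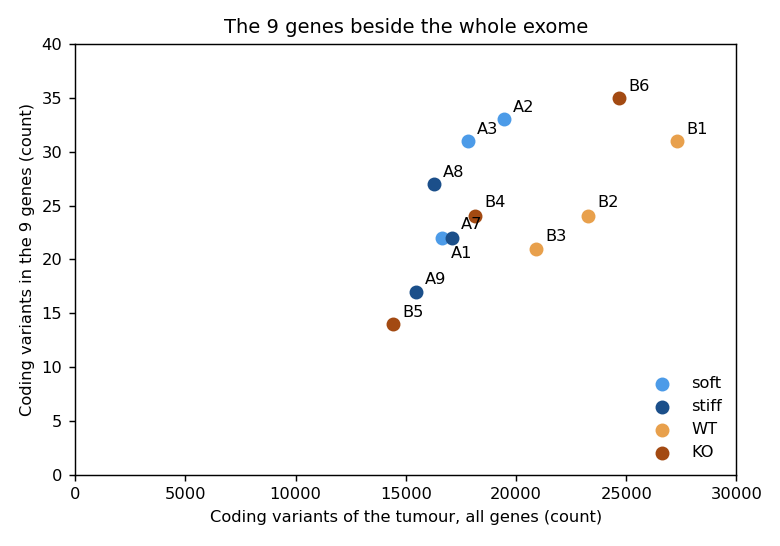
Summed coding count of the 9 genes (vertical axis) against the coding count of all genes (horizontal axis) for each of the 12 tumours, coloured by group. B6 is the highest with 35 and B5 the lowest with 14, and the WT tumours B1, B2 and B3 hold 21 to 31 at whole-exome counts of 20918 or more.

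MODIFIER variants were more numerous, 2743 over the 9 genes and 12 tumours, and were examined after the coding counts had been seen. The genes named from them were also picked after their values were seen. Kmt2c had 9, 6 and 9 in soft and 11, 15 and 20 in stiff tumours. The groups did not overlap, and 1.73% of 19505 genes were higher in stiff tumours without overlap. Its log2 fold change was 0.93 (SE 0.37, edgeR adjusted p = 0.576), with 0 of all genes called. With each tumour scaled to its total MODIFIER count the value was 1.14 (SE 0.42, edgeR adjusted p = 0.598). On that scale Kmt2b and Ezh2 were also higher in stiff tumours without overlap, as were 8.8% of all genes. Most of these variants were intronic: 7, 6 and 9 in soft and 11, 15 and 19 in stiff tumours.

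Setd2 had 27, 33 and 29 MODIFIER variants in soft and 20, 24 and 23 in stiff tumours, again without overlap. Here the background was larger, since 8.13% of genes were lower in stiff tumours without overlap. The log2 fold change was -0.41 (SE 0.21, edgeR adjusted p = 0.654), and with each tumour scaled to its total MODIFIER count it was -0.19. On that scale the stiff tumours were still lower without overlap. Setd2 made up 7.15 ± 0.126 per 100000 MODIFIER variants in soft and 6.28 ± 0.879 in stiff tumours (SD, n = 3 each). The share of all genes lower without overlap on that scale was not computed. In gel against host tumours the Setd2 value was -0.50 (SE 0.21, edgeR adjusted p = 0.183), and -0.05 when scaled. Its unadjusted edgeR p was 0.0295, in a comparison where 21.2% of genes had one under 0.05. No member was without overlap between KO and WT tumours, where 7.84% of genes were: 7 members had lower and 2 higher means in KO.

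Ncor1 had 46, 31 and 44 MODIFIER variants in soft, 29, 26 and 41 in stiff, 42, 36 and 25 in WT and 22, 17 and 32 in KO tumours. As counts, the gel and host tumours overlapped and the log2 fold change was 0.32 (SE 0.24, edgeR adjusted p = 0.483), where 624 genes (3.01%) were called. With each tumour scaled to its total MODIFIER count, the value was 0.80 (SE 0.19, edgeR adjusted p = 0.0359), one of 334 genes called (1.61%). On that scale Ncor1 made up 9.47 ± 2.48 per 100000 MODIFIER variants in gel and 5.39 ± 0.540 in host tumours (SD, n = 6 each), higher in each of the 6 gel tumours than in any host tumour, as were 249 of 20737 genes (1.2%). The scaling moves the median of all genes from -0.20 to 0.25. The call was lost when any 1 of A1, A3, A9, B1, B2, B3, B4 or B6 was left out, with the log2 fold change between 0.72 and 0.88 and the adjusted p between 0.0211 and 0.0851 over the 12 such fits. Crebbp was 0.80 (SE 0.47, edgeR adjusted p = 0.348) as counts and 1.25 (SE 0.48, edgeR adjusted p = 0.151) when scaled. Without A9, which had 14 MODIFIER variants in Crebbp, these were 0.38 and 0.77.

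**Figure D5:**
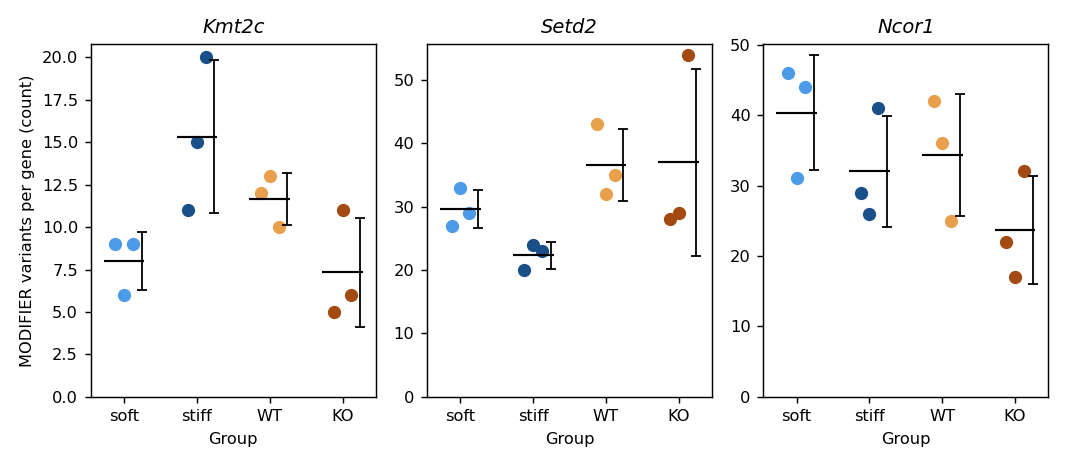
MODIFIER variants per gene (vertical axis, count) in Kmt2c, Setd2 and Ncor1 by group; points are tumours, horizontal lines are means and bars are ± 1 SD (n = 3). The stiff tumours lie above the soft tumours in Kmt2c (11 to 20 against 6 to 9) and below them in Setd2 (20 to 24 against 27 to 33).

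Partner genes were counted in 7 lists: COMPASS and MLL partners, other lysine methyltransferases, other acetyltransferases, Polycomb repressive complex 2, NCoR partners, lysine demethylases and SWI/SNF subunits. In none of the lists was a gene called in any of the 3 comparisons by edgeR. In stiff against soft tumours Smarca2, a SWI/SNF ATPase, had 0 protein-altering variants in each stiff tumour and 1, 1 and 2 in soft tumours (edgeR quasi-likelihood adjusted p = 1, with Benjamini-Hochberg adjustment). It was the 1 of 6 SWI/SNF genes tested with an unadjusted p under 0.05, beside 2.46% of all genes. In KO against WT tumours Kmt5a, a histone H4 methyltransferase, had 0 in each KO and 2, 1 and 2 in WT tumours (edgeR adjusted p = 1). Kmt5c, which also methylates histone H4, had 3, 4 and 3 in KO and 1, 2 and 1 in WT tumours without overlap (edgeR adjusted p = 1), where 4.99% of all genes did not overlap. The demethylase Kdm3b had 1, 1 and 2 in KO tumours and 0 in each WT tumour (edgeR adjusted p = 1). Arid1a, a SWI/SNF subunit, had 8, 7 and 11 in KO and 20, 30 and 15 in WT tumours (edgeR adjusted p = 1). An unadjusted p under 0.05 was found for 1 of 8 methyltransferases (Kmt5a), 1 of 7 demethylases (Kdm3b) and 1 of 4 SWI/SNF genes (Arid1a) tested, beside 3.75% of all genes.

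In gel against host tumours, 2 of 12 methyltransferases tested (Nsd2 and Smyd2), 1 of 6 NCoR partners (Hdac3) and 1 of 9 demethylases (Kdm6b) had an unadjusted p under 0.05, each with an edgeR adjusted p of 0.439. Over all genes the share was 10.8%. Nsd2 and Kdm6b had variants in 3 gel tumours and none in host tumours, whereas Smyd2 and Hdac3 had them in 3 and 4 host tumours and none in gel tumours. The groups overlapped in all 4 genes. No gene of the COMPASS, acetyltransferase or Polycomb lists had an unadjusted p under 0.05 in any comparison.

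Genes with a like pattern were sought for Kmt2a, taken by its raw mean coding count, which is not a level per length. It had 7, 16 and 12 in soft, 7, 10 and 6 in stiff, 8, 6 and 8 in WT and 5, 6 and 12 in KO tumours. Among 4555 genes, those whose coding count per 10000 of the tumour followed it most closely over the 12 tumours were Glmn (Pearson r = 0.93), Ak7 (0.88) and Tbc1d31 (0.83). The points share each tumour's total, and these are descriptions without a test. Glmn, a ubiquitin ligase regulator, had 4 coding variants in A2 and 1 to 3 in the others.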

How the data were processed

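Per the labels' protocols, the SureSelectXT mouse exon kit was used, with paired reads of 150 bp and a stated depth above 50x; BWA 2.2.1, SAMtools 1.19.2, GATK and GRCm39 are named in the submitters' processing notes. Per the file headers, the deposited tables come from snpEff and give, for each transcript, counts of its variants by impact class and effect; other deposited columns, for effects at start and stop codons, are counts too. How variants were called and filtered is not given in the sources used here, nor is any use of the 2 tail samples, which were not analysed here. With neither read depths nor positions in the tables, the depth is unknown.

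For each gene and class the maximum over protein-coding transcripts was taken, and unlisted genes were set to 0. One variant can enter several classes if transcripts differ in its impact. Protein-altering counts were tested with edgeR 4.0.16 (quasi-likelihood, equal library sizes, sum of at least 3 over the tumours fitted, Benjamini-Hochberg threshold 0.05); DESeq2 1.42.0 was also run. The printed SE is approximate: the size of the log2 fold change divided by the square root of edgeR's F. The scripts were tested on simulated data, with changes placed only in genes of higher mean count than any member. That test therefore cannot tell how often a change in a member would be called. Labels give only separate samples, so p-values reflect only how these tumours vary.

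The members and lists were chosen with earlier results of these data known. Named genes are the 9 members, up to 3 genes of each list per comparison with the smallest edgeR p among those under 0.05 or without overlap, the 3 nearest coding profiles, and Trp53, Gpx4 and Lyz2. Counts per coding length, planned at the start, were not computed because no lengths of the files' build were used here. Alternatives changed the transcript rule, biotypes, filter, classes, scaling, tool and tumours; the MODIFIER results were added after seeing the data.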

Additional observations from a re-analysis of the deposited data

Results flagged for a closer look

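In groups of 6 tumours, 11 of 58 sets of counts had 1 tumour far from the other 5 by Dixon's test, where chance flags about 1 in 20 sets; counts this low are often tied, which makes such flags easy to reach. Kmt2b in A3 had 3 protein-altering variants (next 1) and 8 coding variants (next 3) among the gel tumours. Kmt2c had 1 protein-altering variant in A9 and 1 in B4, against 0 in the others of each experiment, and the same A9 variant, 1, set its coding count apart. Ep300 in B5 had 2 coding variants where the next lowest host tumour had 5. Crebbp had 2 coding variants in A1 and 1 in B1, against 0 in the others of each experiment. Ncor1 in A7 had 2 protein-altering variants where the other gel tumours had 1. Ezh2 had 0 protein-altering variants in A9 and 0 in B5, where the others had 1.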

How the results depend on the processing

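No paired analysis was possible because the compared groups share no sample numbers (A1 to A3 against A7 to A9, and B1 to B3 against B4 to B6). Counts of called genes for protein-altering variants stayed at 0 in stiff against soft and KO against WT tumours under every alternative run. In gel against host tumours they were 4 with DESeq2 and equal size factors, 2 with its poscounts size factors, 2 with total library sizes, and 0 to 3 with 1 tumour left out. For MODIFIER variants, gel against host calls ran from 24 to 2589 with 1 tumour left out, and scaled to totals from 115 to 1277; KO against WT scaled calls were 35, and 22 to 44; stiff against soft calls were 0 to 4, and 0 to 11 scaled. The summed coding difference, KO minus WT, turned to 2.33 with LOW variants only, 1.5 with median transcripts and 1.80 per 10000, and ran from -6.33 to 4.17 with 1 tumour left out. Gel minus host was -1.67 without Kmt2a and -1.67 to 2.53 with 1 tumour left out; stiff minus soft was -10.0 to -4.17. Log2 fold changes that turned sign in stiff against soft were Kmt2b with MODERATE only (0.79), Kmt2d with MODERATE only (-0.79) and Ep300 with median transcripts (0.79). In KO against WT they were Kmt2a with coding counts (0.063), Kmt2b with coding counts (0.10) and MODERATE only (0.51), Setd2 with median transcripts (1.30), and Ep300 with HIGH only (0.79) and total library sizes (0.16). In gel against host they were Kmt2d with MODERATE only (-0.62), Setd2 with total library sizes (0.026) and Ep300 with HIGH only (-1.10). With 1 tumour left out the values ran from -3.54 to 0.85 for Kmt2b and -0.56 to 0.21 for Ep300 in KO against WT, and in gel against host from -1.30 to 0.051 for Kmt2b, -0.53 to 0.80 for Kmt2d, -0.016 to 0.33 for Ep300 and -0.12 to 0.016 for total-scaled Setd2 MODIFIER counts. The cause of these changes was not tested. Scaling to total library sizes moved the median log2 fold change of all genes from 0 to 0.13 in stiff against soft, from -0.31 to 0.0044 in KO against WT and from -0.34 to -0.026 in gel against host. Protein-altering counts of 0 to 9 per member and tumour, and 3 tumours a group, limit the precision.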
